A study of Mus musculus with 4 samples.

Results

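The genes described here drive or restrain the G1 phase of the cell cycle: the D-type cyclins Ccnd1, Ccnd2 and Ccnd3, the E-type cyclins Ccne1 and Ccne2, the kinases Cdk4 and Cdk6, the kinase inhibitors Cdkn1b and Cdkn2c, and the retinoblastoma gene Rb1. They were taken by symbol from a table of 39170 gene rows, where each of the 10 had a single row. RNA was sequenced from insulin-positive islet cells of MIP-GFP C57BL/6 mice, males of 6 to 8 weeks, in which green fluorescent protein is made under the mouse insulin promoter. Sorting for Glut2, a glucose transporter whose gene is Slc2a2, split the cells into a low gate (Glut2L) and a high gate (Glut2H). The groups were Glut2L STZ, Glut2L control, Glut2H STZ and Glut2H control. STZ mice had received 200 mg/kg of streptozotocin in citrate buffer by intraperitoneal injection and were diabetic 4 days later, and control mice had received vehicle. STZ alkylates DNA and is taken up into beta cells by Glut2. The labels give 3 mice per treatment and 1 library per group, and no source used here says whether mice were pooled.

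In G1, D-type cyclins bind Cdk4 or Cdk6, and the active kinase phosphorylates the Rb1 protein, which then releases E2F transcription factors. Cyclin E with Cdk2 completes that step and starts S phase. Cdkn2c, the p18 member of the INK4 family, binds Cdk4 and Cdk6 and blocks their pairing with cyclin, while Cdkn1b, or p27, blocks cyclin E with Cdk2. In mice, Ccnd2 and Cdk4 are needed for the growth of beta cell mass after birth, and Cdkn1b restrains it.

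Levels are given in FPKM (fragments per kilobase of a transcript, scaled to mapped fragments) as deposited, with unknown read totals. Differences are log2 ratios of FPKM plus 1, and a call means a difference of at least 2-fold on that scale. With 1 library per group there is no spread between replicates, so no difference was tested and each comparison describes these 4 libraries. The authors' table gives an interval around each FPKM, at a level that is not stated. The half-width of that interval had a median over the 10 genes of 87.6% of the FPKM in Glut2L STZ, 94.7% in Glut2L control, 101% in Glut2H STZ and 112% in Glut2H control. In none of the 4 comparisons did the intervals of any of the 10 genes lie apart. How many of all rows had intervals that lay apart was not counted, so that result has no background beside it.

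The transcript of the sorted protein went against the gate labels. Slc2a2 stood at 33.7 FPKM in Glut2L STZ and 41.0 in Glut2L control, against 10.8 in Glut2H STZ and 8.74 in Glut2H control, so every gate direction below is one between libraries labelled Glut2L and Glut2H. Markers of other cells differed between them as well. Of 13 immune markers 12 were in the table, and they summed to 135 FPKM in Glut2L STZ and 101 in Glut2L control, against 3161 in Glut2H STZ and 2906 in Glut2H control, with Cd3e listed at 0 in both libraries labelled Glut2L. The 9 endothelial markers summed to 15.7 and 35.5 FPKM in Glut2L STZ and Glut2L control, against 238 and 284 in Glut2H STZ and Glut2H control, with Tie1 listed at 0 in Glut2L STZ. The 9 stromal markers summed to 20.4 and 44.2 FPKM in Glut2L STZ and Glut2L control, against 687 and 796 in Glut2H STZ and Glut2H control, with none at 0. The 9 markers of other endocrine cells differed the opposite way, with sums of 20476 and 13765 FPKM in Glut2L STZ and Glut2L control, against 9964 and 7912 in Glut2H STZ and Glut2H control, where Ghrl was listed at 0 in Glut2H control. Of these 9, 4 were at least 2-fold higher in Glut2L and 0 lower in STZ mice, and 2 were higher and 0 lower in control mice. The 6 duct markers summed to 135 and 163 FPKM in Glut2L STZ and Glut2L control, against 206 and 195 in Glut2H STZ and Glut2H control, with none at 0, and were split: 4 were at least 2-fold higher in Glut2L and 1 lower in STZ mice, and 2 of 5 measured were higher and 1 lower in control mice. All 11 beta cell markers were detected in every library and summed to 209330 FPKM in Glut2L STZ and 338099 in Glut2L control, against 67209 in Glut2H STZ and 71099 in Glut2H control. The part of these cell types in the values of the G1 genes was not tested, and in bulk RNA fewer cells of a type and less RNA per cell cannot be told apart. The predicted gene Gm20594 alone took 4.15% and 3.86% of the summed FPKM in Glut2L STZ and Glut2L control, against 68.5% and 61.0% in Glut2H STZ and Glut2H control, which bears on any rescaling.

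The gates were compared because the submitters regard insulin-positive cells with little Glut2 as enriched in multipotent progenitors. In both STZ and control mice the libraries labelled Glut2L held more Ccnd2, Ccnd1, Ccnd3, Ccne2 and Cdkn1b RNA and less Cdk4 and Cdk6 RNA than those labelled Glut2H, though Cdk4 in both pairs and Cdk6 in the STZ pair turned the other way when every library was rescaled to the same summed FPKM. In the STZ pair 5 of the 10 genes stood at least 2-fold higher in Glut2L, beside 22.9% of all 15839 rows measured, and 0 were at least 2-fold lower, beside 17.8%. In control mice the higher calls were 2 of 10, beside 19.7% of 16234 rows, and 1 was at least 2-fold lower, beside 18.5%, so the control shares were near those of all rows. The STZ count came to 2 with a pseudocount of 5 or with the median of all rows set to 0, since Ccnd1, Ccnd3 and Cdkn1b lay just past 2-fold. The control count came to 7 with the same summed FPKM in every library, a step that moved the median of all rows there to 0.87. The shares of all rows called under these settings were not counted. Median log2 differences at the deposited scale were 0.60 over the 10 genes and 0.23 over all rows in STZ mice. In control mice they were 0.51 and 0.15. At the deposited scale 7 of 10 were higher in Glut2L in both pairs, at any size, where 43.3% of 14340 rows were, and 2 of 10 were lower, where 27.9% were. At least 2-fold higher in both pairs were 2 of 10, Ccnd2 and Ccne2, beside 8.15% of rows, and 0 were at least 2-fold lower in both, beside 10.4%.

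Ccnd2, the most abundant D-type cyclin of the libraries (ENSMUSG00000000184, GRCm38 chromosome 6, 127125162 to 127152193, minus strand), stood at 67.9 FPKM in Glut2L STZ and 75.6 in Glut2L control, against 27.1 in Glut2H STZ and 29.8 in Glut2H control. Both libraries labelled Glut2L lay above both labelled Glut2H, and the level sat above 95.8% of protein-coding genes in each Glut2L library, against 89.0% in Glut2H STZ and 89.9% in Glut2H control. The log2 difference between the gates was 1.29 in STZ mice, which 14.7% of measured rows reached or passed, and 1.31 in control mice, which 12.3% did. The locus of the authors' row runs to 127212411, past the span given above. Gm43126, which had no value, and 9330179D12Rik overlap Ccnd2 on the opposite strand. The latter stood at 2.94 and 0.282 FPKM in Glut2L STZ and Glut2L control, against 0.142 and 1.21 in Glut2H STZ and Glut2H control.

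Ccnd3 (ENSMUSG00000034165, chromosome 17, 47505051 to 47599691, plus strand) had 21.8 FPKM in Glut2L STZ and 16.8 in Glut2L control, against 9.92 in Glut2H STZ and 11.3 in Glut2H control. Ccnd1, the cyclin best known as a target of mitogen and Wnt signals (ENSMUSG00000070348, chromosome 7, 144929931 to 144939925, minus strand), had 9.26 FPKM in Glut2L STZ and 7.60 in Glut2L control, against 3.85 in Glut2H STZ and 5.14 in Glut2H control. These cyclins had nearly the same profile: the root mean square distance between their centred log2 levels over the 4 libraries was 0.07, and of the 81 other genes compared Ccnd1 was the nearest to Ccnd3. Their gate differences were 1.06 for Ccnd3 and 1.08 for Ccnd1 in STZ mice, just past 2-fold, and 0.53 and 0.49 in control mice, short of it. Genes on the opposite strand overlap both annotated spans, and no source used here gives the strand setting of the authors' counting. Oraov1, at Ccnd1, stood at 31.5 and 16.9 FPKM in Glut2L STZ and Glut2L control, against 11.5 and 27.5 in Glut2H STZ and Glut2H control, so its gate difference had the direction of Ccnd1 in STZ mice and the opposite one in control mice. Bysl, at Ccnd3, stood at 6.70 and 6.40 FPKM in Glut2L STZ and Glut2L control, against 7.34 and 9.36 in Glut2H STZ and Glut2H control, the opposite direction to Ccnd3 in both pairs.

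**Figure D1:**
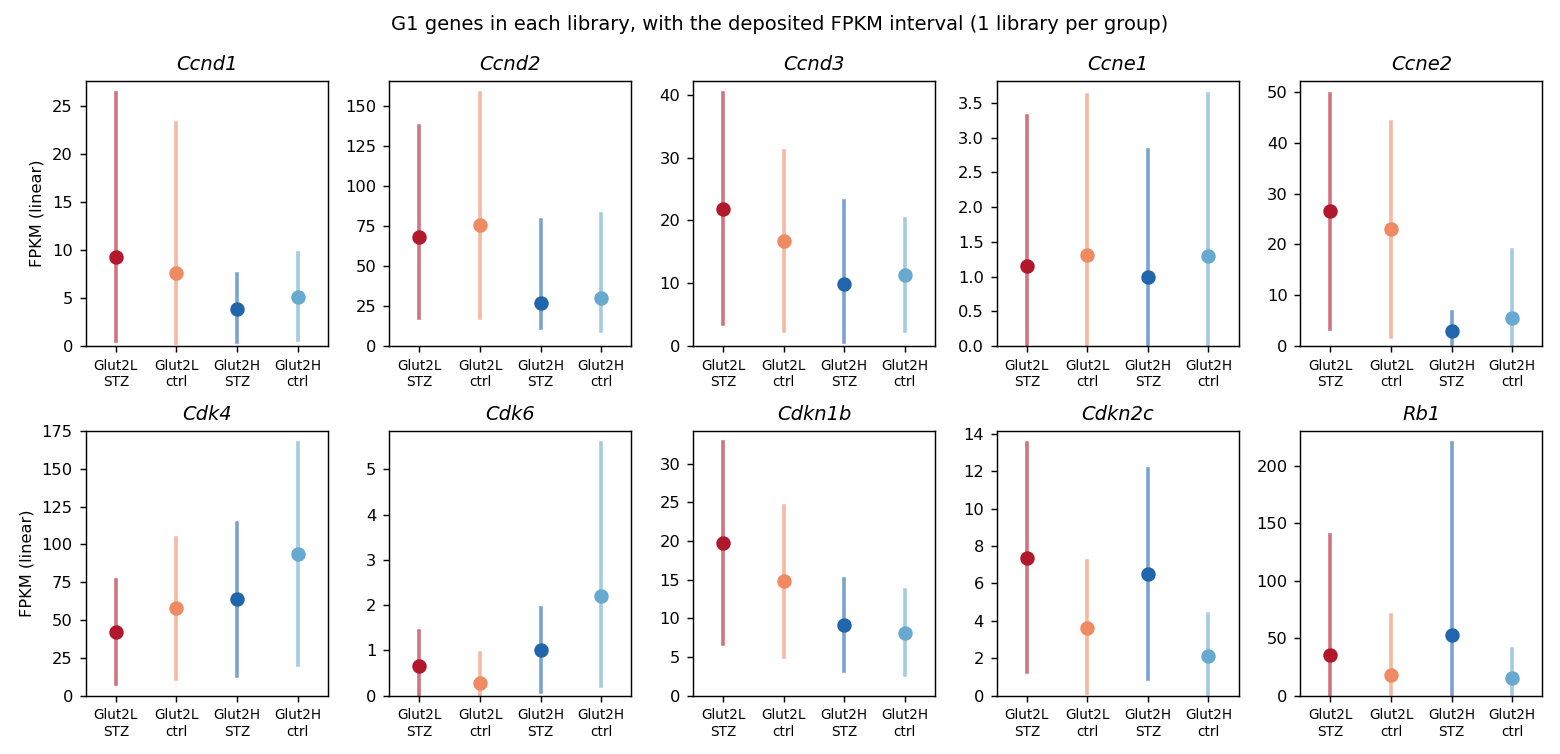
FPKM (linear axes, a scale per panel) of the 10 G1 genes in the Glut2L STZ, Glut2L control, Glut2H STZ and Glut2H control libraries, 1 point per library, with vertical lines for the interval in the authors' table. Ccnd1, Ccnd2, Ccnd3, Ccne2 and Cdkn1b are higher in both Glut2L libraries than in both Glut2H libraries, Cdk4 and Cdk6 are lower at this scale (Cdk4 in both pairs and Cdk6 in STZ mice turn round when library sums are set equal), and all intervals of a gene overlap.

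Within a library, the make-up of the D-type cyclins does not depend on how libraries are scaled. Ccnd2 made up 68.6% of the summed D-type cyclin FPKM in Glut2L STZ and 75.6% in Glut2L control, against 66.3% in Glut2H STZ and 64.4% in Glut2H control. Ccnd3 made up 22.0% and 16.8% in Glut2L STZ and Glut2L control, against 24.3% and 24.5% in Glut2H STZ and Glut2H control. Ccnd1 was the smallest share throughout, at 9.36% and 7.60% in the libraries labelled Glut2L (STZ and control) and 9.41% and 11.1% in those labelled Glut2H. The order Ccnd2, Ccnd3, Ccnd1 held in all 4 libraries.

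Ccne2 had the widest gate difference of the 10 genes on the scale of log2 of FPKM plus 1. This E-type cyclin (ENSMUSG00000028212, chromosome 4, 11191351 to 11204779, plus strand) stood at 26.6 FPKM in Glut2L STZ and 23.0 in Glut2L control, against 3.03 in Glut2H STZ and 5.42 in Glut2H control. Both Glut2L values were over 4 times either Glut2H value, with ratios of 8.79 in STZ mice and 4.25 in control mice. The log2 differences of 2.78 and 1.90 were reached or passed by 2.53% of measured rows in STZ mice and 5.05% in control mice. In control mice the plain Glut2L to Glut2H ratio of Cdk6, 0.131, lay farther from 1 than that of Ccne2, and with a pseudocount of 0.1 the log2 differences there were -2.57 for Cdk6 and 2.07 for Ccne2. Ints8, a gene of the opposite strand whose span overlaps Ccne2, stood at 13.3 and 9.996 FPKM in Glut2L STZ and Glut2L control, against 32.3 and 12.3 in Glut2H STZ and Glut2H control, so it did not share the Ccne2 order.

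Ccne1 (ENSMUSG00000002068, chromosome 7, 38097984 to 38107534, minus strand) was near the lower end of detection. It stood at 1.15 FPKM in Glut2L STZ and 1.31 in Glut2L control, against 0.993 in Glut2H STZ and 1.30 in Glut2H control, and the lower interval bound was 0 in every library. The libraries lay close together, with gate differences of 0.11 in STZ mice and 0.00 in control mice, which turned to -0.12 and -0.14 with the median of all rows set to 0. Ccne2 made up 95.9% of the summed E-type cyclin FPKM in Glut2L STZ and 94.6% in Glut2L control, against 75.3% in Glut2H STZ and 80.6% in Glut2H control.

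The kinase genes ran the other way. Cdk4 (ENSMUSG00000006728, chromosome 10, 127063534 to 127067920, plus strand) stood at 42.2 FPKM in Glut2L STZ and 57.8 in Glut2L control, against 63.7 in Glut2H STZ and 93.9 in Glut2H control. Each Glut2L library lay below both Glut2H libraries, with log2 differences of -0.58 in STZ mice and -0.69 in control mice, short of 2-fold. Tspan31, which overlaps Cdk4 on the opposite strand, had the reverse order, at 40.1 and 37.9 FPKM in Glut2L STZ and Glut2L control, against 26.5 and 27.9 in Glut2H STZ and Glut2H control. Both Cdk4 differences turned positive, to 0.53 and 0.13, when every library was rescaled to the same summed FPKM, a step that moved the median of all rows to 1.18 and 0.87, so Cdk4 remained below that median.

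Cdk6 (ENSMUSG00000040274, chromosome 5, 3341485 to 3531008, plus strand) was scarce, at 0.652 FPKM in Glut2L STZ and 0.290 in Glut2L control, against 1.002 in Glut2H STZ and 2.21 in Glut2H control. The Glut2H control library held the most, and the gate difference was -1.32 in control mice and -0.28 in STZ mice, the STZ value turning to 0.23 under the equal sum, where both libraries were under 1 FPKM. Cdk4 therefore made up 98.5% of the summed Cdk4 and Cdk6 FPKM in Glut2L STZ and 99.5% in Glut2L control, against 98.5% in Glut2H STZ and 97.7% in Glut2H control. The catalytic partner of cyclin E, Cdk2, was nearest to Cdk6 in profile (distance 0.14), at 1.82 and 1.28 FPKM in Glut2L STZ and Glut2L control, against 1.79 and 4.51 in Glut2H STZ and Glut2H control.

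The stretch of 250 bases before a RefSeq start is shown for both kinase genes, which were lower in Glut2L. It is also shown for a cyclin and an inhibitor that were higher there. Capitals mark the E-box CACGTG, which Myc with its partner Max binds and which reads alike on both strands, or the FOXO motif TGTTTAC, searched on both strands. The sequences are from RefSeq on GRCm38.p6, which held such a window for 6 of the 10 genes, and each is from the plus strand. They lie at chr10:127063285-127063534 for Cdk4, chr5:3343643-3343892 for Cdk6, chr17:47504801-47505050 for the first of the Ccnd3 starts and chr6:134920151-134920400 for Cdkn1b. The Cdk6 window lies inside the Cdk6 span given above, which begins at 3341485. It precedes the RefSeq start and is not upstream of that whole span.
Cdk4: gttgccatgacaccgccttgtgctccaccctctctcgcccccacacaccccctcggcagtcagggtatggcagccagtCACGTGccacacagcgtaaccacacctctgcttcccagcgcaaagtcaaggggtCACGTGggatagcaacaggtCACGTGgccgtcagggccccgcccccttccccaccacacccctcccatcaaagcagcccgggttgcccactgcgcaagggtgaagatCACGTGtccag
Cdk6: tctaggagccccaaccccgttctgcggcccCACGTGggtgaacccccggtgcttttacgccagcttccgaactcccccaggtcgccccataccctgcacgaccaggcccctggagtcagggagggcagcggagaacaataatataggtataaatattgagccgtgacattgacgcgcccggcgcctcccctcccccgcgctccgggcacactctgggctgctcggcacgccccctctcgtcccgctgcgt
Ccnd3: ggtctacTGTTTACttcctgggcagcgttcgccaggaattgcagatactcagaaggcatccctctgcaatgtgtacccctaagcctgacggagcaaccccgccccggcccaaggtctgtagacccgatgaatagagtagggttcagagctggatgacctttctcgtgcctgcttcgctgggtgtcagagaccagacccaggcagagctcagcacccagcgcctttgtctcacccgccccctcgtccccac
Cdkn1b: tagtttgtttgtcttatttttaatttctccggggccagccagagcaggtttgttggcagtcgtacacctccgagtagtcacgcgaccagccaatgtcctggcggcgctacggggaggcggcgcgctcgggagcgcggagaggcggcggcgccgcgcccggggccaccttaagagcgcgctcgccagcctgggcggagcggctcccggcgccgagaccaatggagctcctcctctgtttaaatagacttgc
The Cdk4 window holds 4 E-boxes, with first bases 172, 118, 98 and 11 bases before the start, and the Cdk6 window holds 1, at 220 bases. Of 32851 mouse windows of this length 6.02% held at least 1 E-box, and 7 windows, or 0.0213%, held 4 or more. The window of the first Ccnd3 start holds 1 FOXO match, 243 bases before that start, a motif found in 3.17% of windows. The window of the second Ccnd3 start holds 0 FOXO matches. The Cdkn1b window, of a gene higher in Glut2L, holds 0 E-boxes and 0 FOXO matches. No window of the 6 genes (the others were of Ccne1 and Cdkn2c, and a second start of Ccnd3) matched the E2F motif, spelt TTTCCCGC, TTTCGCGC, TTTGCCGC or TTTGGCGC on either strand, which 1.86% of windows held. A match describes letters and is no evidence of binding. Myc RNA stood at 11.1 FPKM in Glut2L STZ and 11.5 in Glut2L control, against 20.8 in Glut2H STZ and 62.6 in Glut2H control, and Foxo1 RNA at 8.71 and 7.67 in Glut2L STZ and Glut2L control, against 3.85 and 5.16 in Glut2H STZ and Glut2H control. Whether Myc or Foxo1 acts on any of these genes was not tested.

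Of the inhibitors, Cdkn1b (ENSMUSG00000003031, chromosome 6, 134920401 to 134925513, plus strand) was higher in the libraries labelled Glut2L. It stood at 19.7 FPKM in Glut2L STZ and 14.8 in Glut2L control, against 9.09 in Glut2H STZ and 8.15 in Glut2H control, so both Glut2L values lay above both Glut2H values, while the authors' intervals overlapped. The log2 difference was 1.04 in STZ mice and 0.79 in control mice, which 21.8% and 25.9% of measured rows reached or passed. Fbxw7, the substrate receptor of a ubiquitin ligase that degrades cyclin E, had the nearest profile to Cdkn1b (distance 0.06), at 13.6 and 9.91 FPKM in Glut2L STZ and Glut2L control, against 5.79 and 5.87 in Glut2H STZ and Glut2H control.

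Cdkn2c (ENSMUSG00000028551, chromosome 4, 109660876 to 109667189, minus strand) sorted by treatment more than by gate, at 7.38 FPKM in Glut2L STZ and 3.62 in Glut2L control, against 6.50 in Glut2H STZ and 2.13 in Glut2H control. Its gate differences were 0.16 in STZ mice and 0.56 in control mice, and the first turned to -0.08 with the median of all rows set to 0.

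Rb1 (ENSMUSG00000022105, chromosome 14, 73183673 to 73325822, minus strand) differed in direction between the pairs, at 35.4 FPKM in Glut2L STZ and 18.4 in Glut2L control, against 53.0 in Glut2H STZ and 15.1 in Glut2H control. The gate difference was -0.57 in STZ mice, turning to 0.54 under the equal sum, and 0.27 in control mice. As a percent of the FPKM, the Rb1 interval was the widest of the 10 genes in 3 of the 4 libraries. It ran from 0.847 to 139 FPKM in Glut2L STZ and from 0.386 to 220 in Glut2H STZ. Rcbtb2 and Lpar6 overlap the Rb1 span on the opposite strand and the noncoding Gm17233 on the same strand, and how the authors' counting split such reads is not known. Rcbtb2 stood at 11.1 and 19.6 FPKM in Glut2L STZ and Glut2L control, against 56.9 and 37.9 in Glut2H STZ and Glut2H control.

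**Figure D2:**
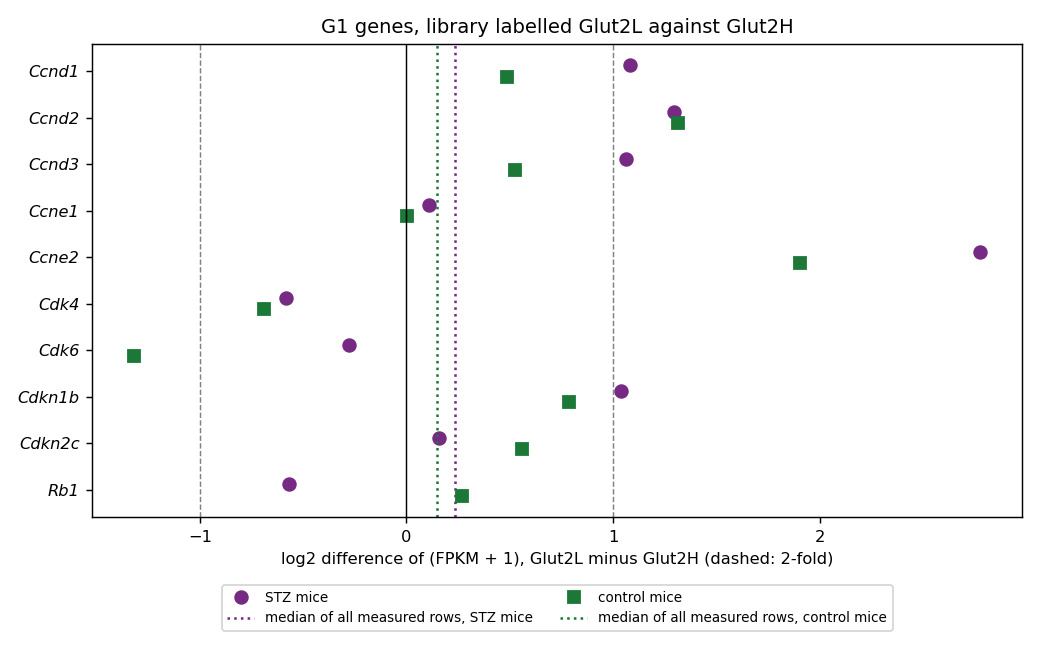
Log2 difference of FPKM plus 1 (horizontal axis) between the libraries labelled Glut2L and Glut2H for each of the 10 G1 genes, in STZ mice (circles) and control mice (squares), with dashed lines at 2-fold and dotted lines at the median of all measured rows. Ccnd2 and Ccne2 lie past 2-fold in both pairs, and Cdk4 and Cdk6 lie left of 0 in both, where equal library sums move Cdk4 to 0.53 in STZ mice and 0.13 in control mice and Cdk6 to 0.23 in STZ mice.

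The ratio of cyclin to kinase RNA within a library does not depend on how libraries are scaled. The D-type cyclins summed to 99.0 FPKM in Glut2L STZ and 99.98 in Glut2L control, against 40.9 in Glut2H STZ and 46.3 in Glut2H control. Divided by the summed Cdk4 and Cdk6 FPKM, this gave 2.31 in Glut2L STZ and 1.72 in Glut2L control, against 0.632 in Glut2H STZ and 0.482 in Glut2H control. The cyclins thus outweighed the kinases in both libraries labelled Glut2L, and the kinases outweighed the cyclins in both labelled Glut2H, at any scaling of the libraries. Those orders are of FPKM values without their intervals. The intervals of Ccnd2 and Cdk4, the largest parts of the sums, overlapped within every library. In Glut2H STZ they ran from 11.1 to 78.4 FPKM for Ccnd2 and from 12.7 to 114 for Cdk4.

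Cdkn1b and Cdkn2c RNA relative to kinase RNA differed by both gate and treatment. The summed Cdkn1b and Cdkn2c FPKM per Cdk4 and Cdk6 FPKM was 0.632 in Glut2L STZ and 0.316 in Glut2L control, against 0.241 in Glut2H STZ and 0.107 in Glut2H control. Each STZ library thus lay above its control, and each Glut2L library above both labelled Glut2H, for Cdkn1b and Cdkn2c alone. With the lower interval bounds in place of the FPKM the ratio of Glut2L STZ was 1.01. Other inhibitors, among them Cdkn1a and Cdkn2b, were left out of the sum. Cdkn1a stood at 68.6 and 37.7 FPKM in Glut2L STZ and Glut2L control, against 43.8 and 29.9 in Glut2H STZ and Glut2H control. Cdkn2b was lower in Glut2L in both pairs, at 19.9 against 23.3 FPKM in STZ mice and 11.8 against 17.1 in control mice. A ratio that includes them was not computed.

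**Figure D3:**
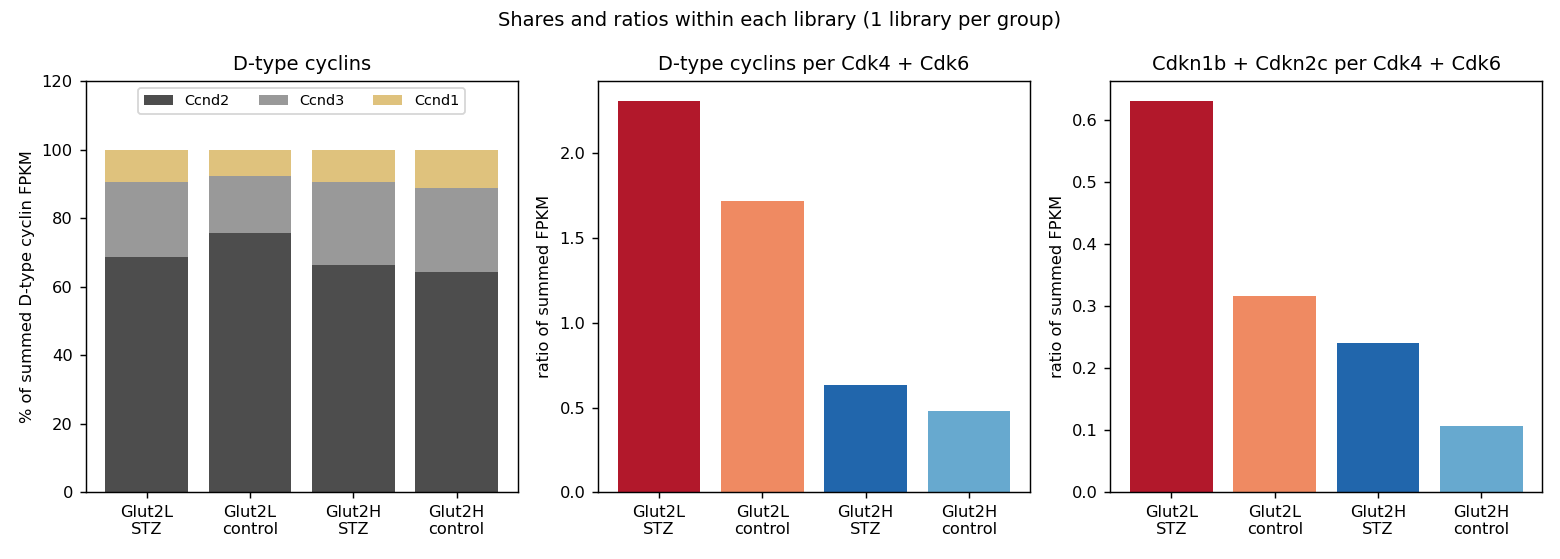
Left, percent of the summed D-type cyclin FPKM taken by Ccnd2, Ccnd3 and Ccnd1 in each library; middle, ratio of the summed D-type cyclin FPKM to the summed Cdk4 and Cdk6 FPKM; right, ratio of the summed Cdkn1b and Cdkn2c FPKM to the same. Bars are single libraries, with ratios of D-type cyclins to kinases of 2.31 and 1.72 for Glut2L STZ and Glut2L control, against 0.632 and 0.482 for Glut2H STZ and Glut2H control.

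STZ and control libraries of a gate were compared to see what the toxin does to its cells, and the series title names proliferation of progenitors in diabetes. In both gates the STZ library held more Cdkn2c, Rb1 and Cdkn1b RNA and less Cdk4 and Ccnd2 RNA than its control, though the Cdkn1b difference in Glut2H turned to -0.06 under the equal sum. In Glut2L 0 of the 9 genes measured were at least 2-fold higher, beside 10.2% of 15602 rows, and 0 were at least 2-fold lower, beside 11.1%. In Glut2H 2 of 10 were at least 2-fold higher, beside 9.62% of 15558 rows, and 0 were at least 2-fold lower, beside 13.8%. Median differences were 0.26 over the 9 genes and 0.00 over all rows in Glut2L, and -0.19 over the 10 genes and -0.07 over all rows in Glut2H.

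The calls in Glut2H were Rb1 and Cdkn2c, both of which restrain entry into S phase. Rb1 gave 1.75, which 3.66% of measured rows reached or passed, and Cdkn2c gave 1.26, which 6.68% did. The same genes gave the widest differences in Glut2L, 0.91 for Rb1 and 0.86 for Cdkn2c, which 11.4% and 12.3% of rows there reached or passed. With a pseudocount of 5 the Cdkn2c value in Glut2H was 0.69, short of 2-fold. The authors' intervals overlapped for both genes. For Rb1 they ran from 0.386 to 220 FPKM in Glut2H STZ and from 0.517 to 41.1 in Glut2H control. For Cdkn2c they ran from 0.915 to 12.1 FPKM in Glut2H STZ and from 0 to 4.38 in Glut2H control. In profile, Cdkn2c was the nearest gene to Rb1 (distance 0.31), and Cdkn1a was the nearest to Cdkn2c (distance 0.26). Both distances were larger than the 0.07 between Ccnd3 and Ccnd1.

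Cdk4 was lower after STZ by a similar amount in both gates, at -0.45 in Glut2L and -0.55 in Glut2H. Ccnd2 differed little, at -0.15 in Glut2L and -0.13 in Glut2H, so the D-type cyclin with the most RNA stayed near its control level in each gate. Cdkn1b differed by 0.39 in Glut2L and 0.14 in Glut2H. Of the 9 genes measured in both gates, 3 differed in opposite directions, beside 49.5% of 13427 rows: Ccnd1, Ccnd3 and Ccne2 were slightly higher after STZ in Glut2L and lower after STZ in Glut2H. The values were 0.26 and -0.34 for Ccnd1, 0.36 and -0.18 for Ccnd3 and 0.20 and -0.67 for Ccne2 in Glut2L and Glut2H. Cdk6, under 1 FPKM in both Glut2L libraries and so not counted, gave 0.36 in Glut2L and -0.68 in Glut2H.

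**Figure D4:**
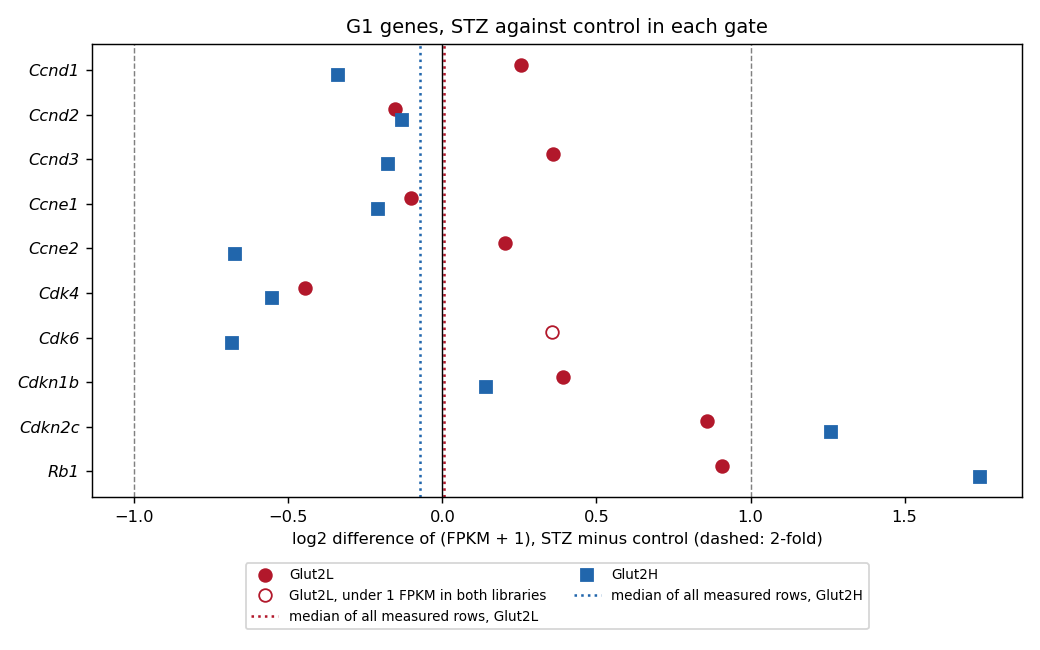
Log2 difference of FPKM plus 1 (horizontal axis) between the STZ and control libraries for each of the 10 G1 genes, in Glut2L (circles) and Glut2H (squares), with dashed lines at 2-fold and dotted lines at the median of all measured rows. Rb1 and Cdkn2c lie farthest to the right in both gates and Cdk4 lies left of 0 in both, and the open circle is Cdk6, which was under 1 FPKM in both Glut2L libraries.

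Acinar markers moved with treatment in Glut2L, where the 9 markers summed to 315 FPKM in Glut2L STZ, with Rbpjl listed at 0, against 2816 in Glut2L control. In Glut2H they summed to 3720 FPKM in the STZ library, with Rbpjl listed at 0, against 3439 in the control library. All 8 measured were at least 2-fold lower after STZ in Glut2L and 0 of 8 in Glut2H, and their part in the values above was not tested. The 6 markers of proliferating cells summed to 19.99 FPKM in Glut2L STZ and 19.9 in Glut2L control, against 6.77 in Glut2H STZ and 9.14 in Glut2H control, with none listed at 0. They were split. In STZ mice 4 were at least 2-fold higher in Glut2L and 1 lower, and in control mice 3 were higher and 1 lower. Birc5 was the lower one in both pairs. After STZ 0 of 5 measured were higher and 1 was lower in each gate, Ccnb1 in Glut2L and Cdk1 in Glut2H.

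The other genes of the pathway were read from 6 lists. Beside their counts, 22.9% of all rows were at least 2-fold higher in Glut2L and 17.8% lower in STZ mice. In control mice the shares were 19.7% and 18.5%. After STZ 10.2% of rows were higher and 11.1% lower in Glut2L, and 9.62% and 13.8% in Glut2H. All-row medians were 0.23 and 0.15 for the gates in STZ and control mice, and 0.00 and -0.07 after STZ in Glut2L and Glut2H. The same shares apply to the marker counts above. Among 5 further CDK inhibitors, 1 was at least 2-fold higher in Glut2L and 2 lower in STZ mice (median -0.21), and 1 of 4 measured was higher and 0 lower in control mice (median 0.34). Cdkn2d, the p19 member of the INK4 family, was higher in both pairs, at 5.48 and 5.35 FPKM in Glut2L STZ and Glut2L control, against 1.08 and 1.60 in Glut2H STZ and Glut2H control. After STZ, 0 of 4 were higher and 1 lower in Glut2L (median 0.37), and 1 of 5 was higher and 0 lower in Glut2H (median 0.42). Cdkn1a, the p53 target p21 and the gene nearest to Cdkn2c, stood at 68.6 and 37.7 FPKM in Glut2L STZ and Glut2L control, against 43.8 and 29.9 in Glut2H STZ and Glut2H control.

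Of 9 other G1 and CDK-activating kinase genes 8 were in the table. In the gate comparison 1 was at least 2-fold higher and 0 lower in STZ mice (median 0.48), and 0 higher and 1 lower in control mice (median 0.08). After STZ 1 of 8 was higher and 0 lower in Glut2L (median 0.34), and 0 of 8 either way in Glut2H (median 0.07). Ccng1, a cyclin induced by p53, gave both of the higher calls, at 94.6 FPKM in Glut2L STZ and 33.8 in Glut2L control, against 41.9 in Glut2H STZ and 33.1 in Glut2H control.

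Pocket proteins and E2F factors were mostly low and split in direction. Of 10 measured, 1 was at least 2-fold higher in Glut2L and 1 lower in STZ mice (median 0.20), and 3 were higher and 0 lower in control mice (median 0.44). After STZ 0 of 9 were higher and 3 lower in Glut2L (median -0.51), and 1 of 10 was higher and 0 lower in Glut2H (median -0.05). The Rb1 relative Rbl2 differed in direction between the pairs, as Rb1 did, at 3.62 and 9.17 FPKM in Glut2L STZ and Glut2L control, against 11.4 and 3.34 in Glut2H STZ and Glut2H control. E2f7, a repressor among the E2F factors, stood out in Glut2L control, at 7.85 FPKM, against 2.16 in Glut2L STZ, 1.20 in Glut2H STZ and 0.705 in Glut2H control. E2f5 was lower after STZ in Glut2L and higher after STZ in Glut2H, at 2.73 FPKM in Glut2L STZ and 6.78 in Glut2L control, and 6.02 in Glut2H STZ and 3.06 in Glut2H control. Tfdp1, the dimer partner of E2F factors, was at least 2-fold higher in the STZ pair, at 19.2 and 16.5 FPKM in Glut2L STZ and Glut2L control, against 7.21 and 12.6 in Glut2H STZ and Glut2H control.

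E2F target genes of S phase went in both directions. In STZ mice 2 of 17 passed 2-fold upward in Glut2L and 1 was lower (median 0.16), and in control mice 2 of 19 were higher and 5 lower (median -0.49). After STZ 2 of 16 were higher and 1 lower in Glut2L (median 0.16), and 1 of 18 was higher and 2 lower in Glut2H (median -0.36). Gins2, a subunit of the replicative helicase complex, stood at 17.99 and 13.9 FPKM in Glut2L STZ and Glut2L control, against 6.50 and 8.64 in Glut2H STZ and Glut2H control, the same order of the gates as Ccnd1 and Ccnd3. Cdt1, which loads that helicase, stood at 3.29 and 0.228 FPKM in Glut2L STZ and Glut2L control, against 5.27 and 8.75 in Glut2H STZ and Glut2H control, a difference of -0.55 in STZ mice and -2.99 in control mice. The helicase subunit gene Mcm3 stood at 0.934 and 0.917 FPKM in Glut2L STZ and Glut2L control, against 3.76 and 5.12 in Glut2H STZ and Glut2H control. Mcm2, another subunit, was nearest to Ccne1 in profile (distance 0.05).

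Ubiquitin ligase genes acting on G1 proteins were split: 2 of 12 were higher and 2 lower in STZ mice (median 0.04), and 2 higher and 0 lower in control mice (median 0.33). After STZ 1 of 11 was higher and 1 lower in Glut2L (median -0.17), and 2 of 12 were higher and 0 lower in Glut2H (median -0.03). Rnf123, a ligase that degrades Cdkn1b protein, stood at 114 FPKM in Glut2L STZ and 93.1 in Glut2L control, against 38.0 in Glut2H STZ and 72.2 in Glut2H control. Ambra1, the receptor of a ligase that degrades D-type cyclins, stood out in Glut2L control, at 27.8 FPKM, against 9.70 in Glut2L STZ, 10.9 in Glut2H STZ and 10.4 in Glut2H control. Cks1b, a cofactor in the turnover of Cdkn1b protein, was higher after STZ in both gates, past 2-fold in Glut2L, at 15.4 FPKM in Glut2L STZ and 4.89 in Glut2L control, and 15.9 in Glut2H STZ and 7.81 in Glut2H control. Skp1a, an adaptor of SCF ligases, stood at 68.0 and 54.2 FPKM in Glut2L STZ and Glut2L control, against 56.5 and 21.8 in Glut2H STZ and Glut2H control. Fbxo31, which targets Ccnd1 protein after DNA damage, stood at 2.14 and 2.91 FPKM in Glut2L STZ and Glut2L control, against 7.86 and 1.31 in Glut2H STZ and Glut2H control.

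Upstream regulators included the genes nearest in profile to Ccnd2, Ccnd1 and Ccne2. Of 18 measured, 6 were at least 2-fold higher in Glut2L and 3 lower in STZ mice (median 0.44), and 5 higher and 3 lower in control mice (median 0.43). After STZ 1 of 17 was higher and 0 lower in Glut2L (median -0.04), and 1 of 17 was higher and 1 lower in Glut2H (median -0.25). Prlr, the prolactin receptor, had the nearest profile to Ccnd2 (distance 0.11), at 102 FPKM in Glut2L STZ and 101 in Glut2L control, against 41.4 in Glut2H STZ and 37.5 in Glut2H control. Igf1r, the IGF1 receptor, was nearest to Ccne2, though farther off (distance 0.36), at 79.3 and 70.3 FPKM in Glut2L STZ and Glut2L control, against 19.5 and 28.2 in Glut2H STZ and Glut2H control. Foxo1, a transcription factor restrained by insulin signals, was nearest to Ccnd1 (distance 0.04). E2f3 was nearest to Cdk4 (distance 0.21), at 0.411 and 0.525 FPKM in Glut2L STZ and Glut2L control, against 1.34 and 1.46 in Glut2H STZ and Glut2H control. These distances rest on 4 libraries that differ in many genes at once, and no shared control is read from them.

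Men1, which encodes menin, a chromatin protein that keeps Cdkn1b and Cdkn2c expressed in mouse islets, stood at 46.5 FPKM in Glut2L STZ and 52.8 in Glut2L control, against 19.9 in Glut2H STZ and 13.1 in Glut2H control. Insr, the insulin receptor, stood at 8.25 and 3.62 FPKM in Glut2L STZ and Glut2L control, against 2.91 and 2.45 in Glut2H STZ and Glut2H control. Stat5a, a transcription factor that relays prolactin signals, stood at 4.73 and 8.41 FPKM in Glut2L STZ and Glut2L control, against 12.5 and 4.10 in Glut2H STZ and Glut2H control, and so did not follow Prlr. Pdgfra, a receptor gene of stromal cells, and Nfatc1, a transcription factor gene, were lower in both libraries labelled Glut2L. Pdgfra stood at 0.662 and 0.301 FPKM in Glut2L STZ and Glut2L control, against 7.40 and 12.5 in Glut2H STZ and Glut2H control, and Nfatc1 at 2.12 and 1.87 in Glut2L STZ and Glut2L control, against 8.67 and 10.5 in Glut2H STZ and Glut2H control. The immune and stromal marker sums given above differed in the same direction.

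**Figure D5:**
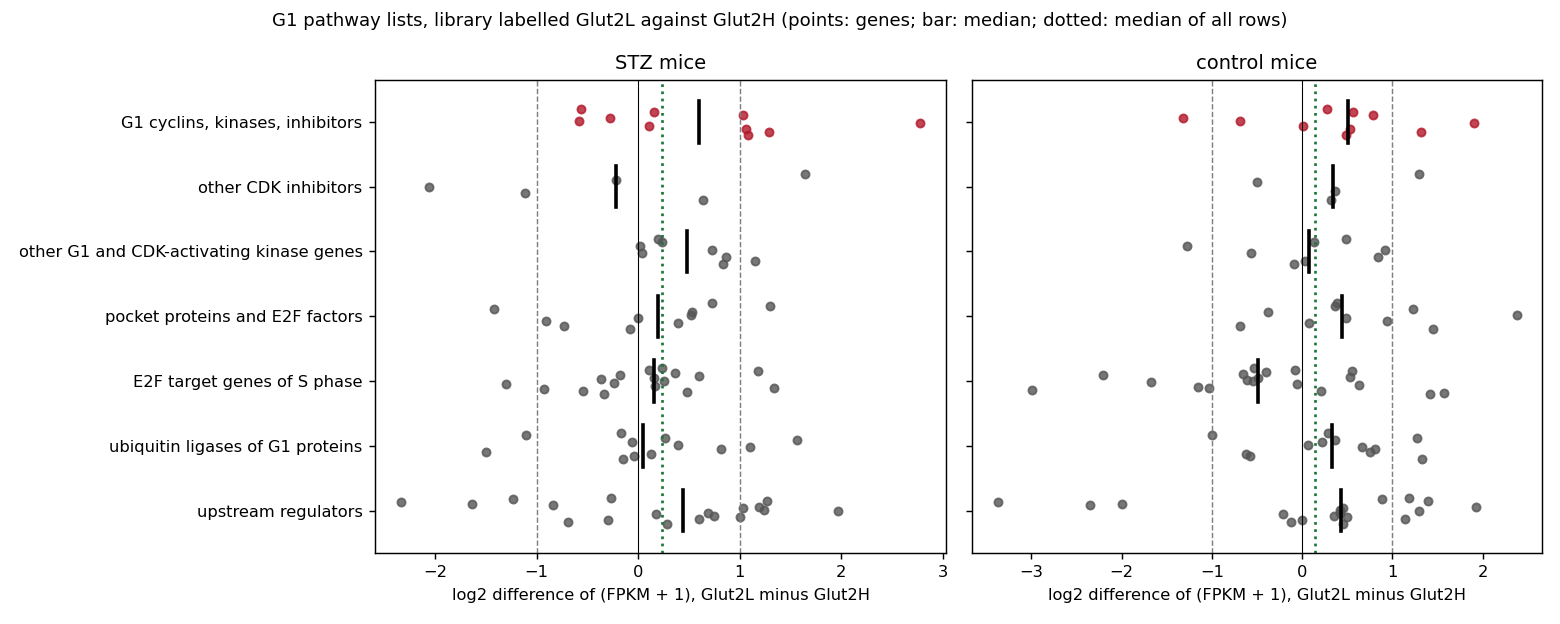
Log2 difference of FPKM plus 1 (horizontal axis) between the libraries labelled Glut2L and Glut2H in STZ mice (left) and control mice (right), with 1 point per measured gene of each list, a bar at the list's median and a dotted line at the median of all measured rows. The 10 G1 genes have medians of 0.60 in STZ mice and 0.51 in control mice, and the E2F target genes of S phase 0.16 and -0.49.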

How the data were processed

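The deposited values are FPKM per gene and library, per the file headers, with 2 interval bounds and a status. Per the submitters' processing notes, the tools were TopHat2, SAMtools and Cuffdiff, and the genome was GRCm38 (mm10). No source used here gives versions, the annotation release, read totals or the normalization and strand settings. The library kit was stranded and ribosomal RNA was depleted, per the labels' protocols. Tables of the single samples held the same FPKM: of 156680 values, 0 differed. Positions are from GENCODE release M21, matched by Ensembl ID to 37693 rows.

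The 4 comparisons used log2 of FPKM plus 1, over rows with status OK and at least 1 FPKM in either library (python 3.11.15, pandas 2.3.3). No test was run, since each group holds 1 library. The text names the 10 genes, pathway genes of at least 5 FPKM that differed at least 2-fold (at most 3 per direction, list and comparison), and the listed gene nearest to each in centred log2 profile. The genes and lists were chosen with earlier results of these data known.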

Additional observations from a re-analysis of the deposited data

Results flagged for a closer look

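The STZ and control libraries differed in opposite directions in the 2 gates for Ccnd1, Ccnd3 and Ccne2, which are 3 of the 9 genes measured in both gates, and for Cdk6, which was under 1 FPKM in both Glut2L libraries. The STZ effect in Glut2L minus that in Glut2H was 0.60 for Ccnd1, 0.54 for Ccnd3, 0.87 for Ccne2 and 1.04 for Cdk6 on the log2 scale. Each effect alone was under 2-fold on that scale, 49.5% of all rows measured in both gates differed in opposite directions, and the difference was not tested.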

How the results depend on the processing

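Counts, medians, shares and ratios that moved by more than 1.5 times are given here, and the cause was not tested. In the STZ gate comparison the genes at least 2-fold higher in Glut2L numbered 2 with a pseudocount of 5 or the median of all rows set to 0. In the control gate comparison 0 were lower with a pseudocount of 5 or a filter of 5 FPKM, which leaves out Cdk6. Rescaling to an equal sum over all rows gave 7 higher and 0 lower there, and the share of all rows called at that scale was not counted. Medians over the genes were then 2.04 in STZ mice, where Cdk6 fell under the filter, and 1.20 in control mice. Medians over all rows were 1.18 and 0.87 at that scale. In Glut2L, STZ against control gave 1 higher with a pseudocount of 0.1 or the equal sum. In Glut2H it gave 1 lower with a pseudocount of 0.1 and 1 higher with a pseudocount of 5. Requiring intervals that lie apart left 0 calls, higher or lower, in every comparison, and the share of all rows that would be left was not counted. With the lower interval bounds the Ccnd1 share of D-type cyclins was 2.55% in Glut2L STZ, 1.76% in Glut2L control, 3.19% in Glut2H STZ and 4.91% in Glut2H control. The Ccnd3 share in Glut2H STZ was then 5.37%, and the inhibitor to kinase ratio in Glut2L STZ 1.01. Of 244 values of single genes under the other pseudocounts and scalings, 208 moved by less than 1.5 times and kept their call, and 36 did not. Rescaling without the highest rows, mitochondrial rows and rows of loci under 300 bases, 3687 rows in all, moved none past either limit. The filters on low values leave a gene's value as it is, and the tables of the single samples hold the same values, so neither bears on this count. No fit with treatment or gate as a block was run. Read totals are unknown, so what depth could detect cannot be stated.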
